A study of Homo sapiens with 4 samples.

Results

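The genes of the endoplasmic reticulum (ER) that fold secreted and membrane proteins, and those that remove misfolded ones by ER-associated degradation (ERAD), were compared between A375 cells given octanoate and cells given vehicle. A375 is an established human melanoma line with a wild-type genotype per the labels. Cells of the octanoate group received 1 mM octanoate, a saturated medium-chain fatty acid, for 48 h, and those of the vehicle group received its solvent isopropanol for the same time. RNA was sequenced from 2 libraries per group, and the labels do not say whether these came from separate cultures. The p-values below rest on the spread between these libraries, which the fit pools in large part over genes of like level. They cannot be read as a measure of the spread between cultures. The members are 36 symbols listed by name, and the list was chosen with earlier results of these data known. Of these, 34 had a row under the listed symbol and ERO1LB had one under its current symbol ERO1B, so that 35 of 56832 rows belong here, and SELK was not analysed here. Genes were tested where the 4 libraries averaged 10 or more normalised counts, as 20250 genes did, and 34 members were among them. The one below it was DERL3, a derlin, with 2.94 and 0.969 in vehicle 1 and 2 and 1.93 and 4.33 in octanoate 1 and 2, at or near the level of single reads.

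As background, proteins enter the ER through the SEC61 channel and are folded there by chaperones such as the HSP70-type HSPA5 (BiP) and the HSP90-type HSP90B1 (GRP94), by the sugar-binding chaperones calnexin and calreticulin, and by protein disulfide isomerases. Proteins that fail to fold are pulled back through the membrane and destroyed by the proteasome, which is ERAD. When unfolded proteins build up, the sensors IRE1 (gene ERN1), ATF6 and PERK (gene EIF2AK3) start the unfolded protein response. Active IRE1 splices XBP1 mRNA, XBP1 and ATF6 then switch on chaperone and ERAD genes, and PERK raises ATF4. Counts per gene, as used here, hold no measure of XBP1 splicing, of ATF6 cleavage or of any protein.

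Some of these genes carry a known control sequence in common, the ER stress element (ERSE), which ATF6 and XBP1 are known to use. RefSeq promoter sequences (build GRCh38.p14, 250 bases before to 50 after each start site) were found for 32 of the 35 members and not for DERL1, DERL3 or PDIA3. The letters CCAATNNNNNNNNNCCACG, searched on both strands, occurred in 8 of these 32 genes and in 25 of all 27305 genes with a promoter sequence (0.0916%). A second form, ERSE-II (ATTGG and CCACG with 1 base of any kind between them), occurred in 3 members (9.38%) and in 19 of all genes (0.0696%). The core of the XBP1 element UPRE, TGACGTG, occurred in 4 members (12.5%), namely DNAJC10, SEC61A1, TXNDC5 and HYOU1, and in 654 of all genes. In HYOU1 it overlaps the upstream ERSE-II. These elements were searched because they are known from these gene families, so the shares describe the genes and test nothing.

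The stretches that hold an ERSE or ERSE-II are shown because genes that share the element did not all move alike here. Of the 8 members with an ERSE, all but XBP1 had lower means in octanoate, some by little. So had the 3 with ERSE-II, all but HERPUD1. They are printed 5′ to 3′ on the strand of the gene, near its RefSeq start site, with the element in capitals. An ERSE in reverse reads from CGTGG to ATTGG, and an ERSE-II in reverse from CGTGG to CCAAT.
HSPA5: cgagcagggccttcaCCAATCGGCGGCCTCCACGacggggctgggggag
HSP90B1 upstream copy: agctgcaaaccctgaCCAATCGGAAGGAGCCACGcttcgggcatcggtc
HSP90B1 downstream copy: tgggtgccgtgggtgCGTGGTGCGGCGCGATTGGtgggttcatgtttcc
CALR: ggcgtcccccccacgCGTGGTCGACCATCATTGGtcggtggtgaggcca
CANX: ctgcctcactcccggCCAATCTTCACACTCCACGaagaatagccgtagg
PDIA6: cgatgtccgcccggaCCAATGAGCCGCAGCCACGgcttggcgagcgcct
CRELD2: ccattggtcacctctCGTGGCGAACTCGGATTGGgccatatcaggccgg
ERO1B: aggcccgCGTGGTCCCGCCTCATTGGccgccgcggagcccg
XBP1: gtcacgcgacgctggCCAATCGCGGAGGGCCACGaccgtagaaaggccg
HYOU1 upstream ERSE-II: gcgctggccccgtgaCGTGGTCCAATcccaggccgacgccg
HYOU1 downstream ERSE-II: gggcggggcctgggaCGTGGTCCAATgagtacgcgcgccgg
HERPUD1 ERSE-II: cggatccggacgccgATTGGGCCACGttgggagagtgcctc
SDF2L1 ERSE-II: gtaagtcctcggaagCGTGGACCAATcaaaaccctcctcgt

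In GRCh38.p14 these stretches lie on the minus strand at chr9:125241376-125241424 for HSPA5, chr2:10812838-10812886 for PDIA6, chr1:236282168-236282208 for ERO1B and chr22:28800588-28800636 for XBP1. On the plus strand they lie at chr12:103930201-103930249 and chr12:103930306-103930354 for HSP90B1, chr19:12938369-12938417 for CALR, chr5:179698763-179698811 for CANX and chr22:49918539-49918587 for CRELD2. The ERSE-II stretches lie at chr11:119057365-119057405 and chr11:119057259-119057299 (minus strand) for HYOU1, chr16:56932010-56932050 (plus strand) for HERPUD1 and chr22:21642099-21642139 (plus strand) for SDF2L1. A start site can differ between transcripts, and for CANX the same element also lies across another RefSeq start site of the gene.

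The deposited values are counts divided by 1 size factor per library, here called normalised counts, and whole reads recovered from them came to between 67785956 and 78005035 per library. Differences were fitted with limma on log2(normalised count + 1) over all 20250 tested genes, with Benjamini-Hochberg adjustment over all of them, and a gene was called higher or lower at an adjusted p under 0.05. Vehicle 1 stood above vehicle 2 for 29 of the 34 members, with a median log2 difference between these libraries of 0.07, against 63.2% of all tested genes and a median of 0.04. Mitochondrial transcripts held 3.05% and 3.03% of the reads in vehicle and 3.21% and 3.19% in octanoate. Of the melanocyte markers, SOX10 was abundant (34072 to 41363 normalised counts), while TYR stood at 1.93 to 3.93 and MLANA at 34.9 to 52.0. The 7 melanocyte markers summed to 44996 to 49274 in vehicle and 38499 to 43594 in octanoate (1 called higher, 2 lower), a sum made up mostly of SOX10. Called lower were S100B (4234 and 3741 in vehicle 1 and 2, 1917 and 1746 in octanoate 1 and 2) and MITF (3533 and 3330, 2414 and 2511). PMEL was called higher (65.8 and 65.9, 98.2 and 95.4). The 3 keratinocyte markers summed to 949 to 1123 and 221 to 269 (1 lower), with KRT1 at 0 in all 4 libraries. The marker called lower was KRT14, with 1110 and 942 in vehicle 1 and 2 and 266 and 218 in octanoate 1 and 2. Sums over 3 markers each were 14.5 to 17.7 and 6.74 to 11.9 for leukocytes (none tested), 201 to 207 and 338 to 347 for endothelial cells (2 higher) and 1913 to 1977 and 1776 to 1926 for fibroblasts (0 of 3 called). Beside these marker calls, 16.2% of all tested genes were called higher and 13.7% lower. The part of these markers, of vehicle 1 and of the mitochondrial share in the results below was not tested. In bulk RNA, fewer cells of a kind and less RNA per cell cannot be told apart.

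Under octanoate the chaperone gene HSPA5 fell by 17.6% and CALR fell by 20.4%, while ERN1, which encodes the sensor IRE1, and the isomerase gene PDIA5 rose by 65.3% and 65.9%. Of the 34 members tested, 11 were called lower, 6 higher and 17 were not called. The members' share of calls was thus 17 of 34, where 29.9% of all tested genes were called, 16.2% higher and 13.7% lower. All tested members but TXNDC5 and ERN1 had a mean of at least 1000, and among all genes at that level 38.1% were called, 18.1% higher and 20.0% lower. Both octanoate libraries lay below both vehicle libraries for 19 members and above both for 10, where 30.5% and 32.6% of all genes did so (63.1% together). Members called lower and higher numbered 5 and 4 without vehicle 1, where 7.53% and 13.7% of all genes were called, and 11 and 2 without vehicle 2, where 10.9% and 11.5% were. They numbered 8 and 2 without octanoate 1 (11.2% and 12.3% of all genes) and 6 and 4 without octanoate 2 (9.0% and 12.7% of all genes). The median log2 difference was -0.09 (-0.04 without vehicle 1) over the 34 members, 0.01 over all tested genes and -0.02 over those with a mean of at least 1000. After removal of trends on GC content and length, 16 members were lower and 7 higher, where 26.2% and 19.1% of all 15605 genes in that fit were, and the share of higher genes among all calls was 42.2%, against 54.1% before and 52.6% among the genes for which both properties were known.

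**Figure D1:**
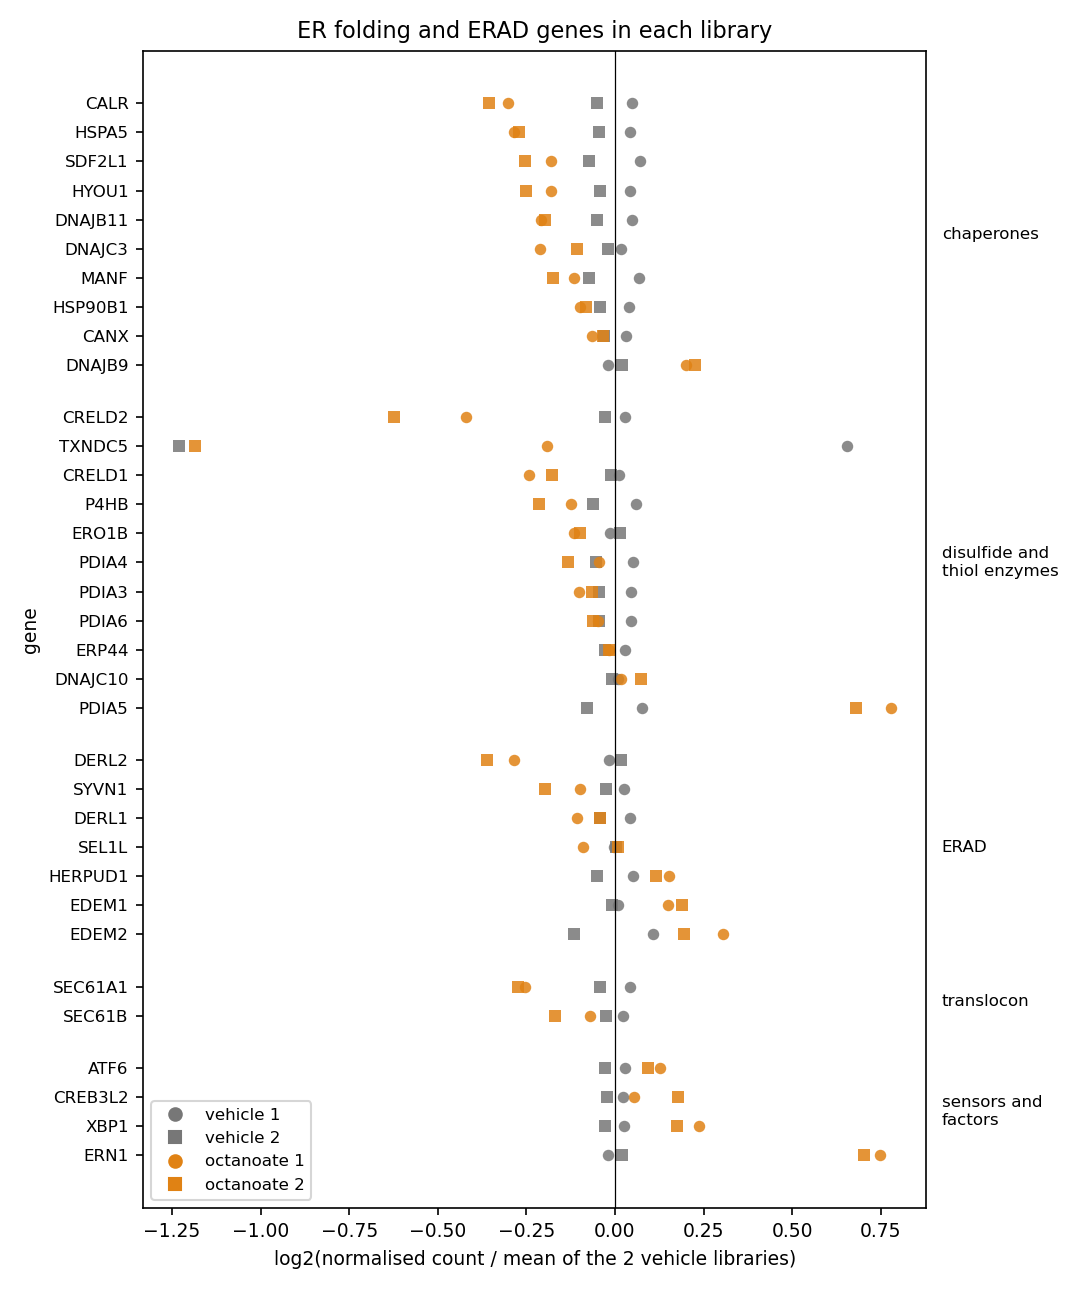
Each point is the log2 ratio of a gene's normalised count in 1 library (circles replicate 1, squares replicate 2) to the mean of the vehicle libraries, for the 34 tested members grouped by role and ordered by log2 difference. Most chaperones lie left of 0 in both octanoate libraries (orange), ERN1 and PDIA5 lie furthest to the right, and TXNDC5 is spread within both groups.

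The chaperones and their helpers were the role group with the most calls: 6 of 10 were lower and 1 higher, with a median log2 difference of -0.18. Among all genes with a mean of at least 1000, 20.0% were lower and 18.1% higher. HSPA5, the HSP70-type chaperone at the centre of ER folding (chr9:125234853-125241330, minus strand), held 99278 and 93446 in vehicle 1 and 2 and 79041 and 79858 in octanoate 1 and 2. It fell by 17.6%, from 96362 ± 4124 to 79449.8 ± 578 normalised counts (mean ± SD, n = 2 libraries), a log2 change of -0.28 with an SE of 0.06 (adjusted p 0.00151 by limma). Both octanoate libraries lay below both vehicle libraries, by more than the libraries of either group differed. CALR, which encodes calreticulin, the soluble sugar-binding chaperone (chr19:12938578-12944489, plus strand), held 83452 and 77931 in vehicle 1 and 2 and 65456 and 63025 in octanoate 1 and 2. It fell by 20.4%, from 80692 ± 3904 to 64240.3 ± 1719 normalised counts (mean ± SD, n = 2 libraries), a log2 change of -0.33 with an SE of 0.06 (adjusted p 0.000268 by limma), again without overlap. These are the same genes whose ERSE stretches are printed above, and both calls were lost in 1 of the 16 alternatives, in which limma's prior for the spread did not follow the expression level, below called no intensity trend (adjusted p 0.0969 and 0.0836, with ranges over the alternatives of 2.92e-07 to 0.0969 and 1.59e-09 to 0.0836).

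Their closest partners were not called. HSP90B1, the ER member of the HSP90 family, which carries 2 ERSE copies, held 112318 and 106162 in vehicle 1 and 2 and 101964 and 103155 in octanoate 1 and 2, a log2 difference of -0.09 (95% interval -0.22 to 0.04, limma adjusted p 0.312). CANX, which encodes calnexin, the membrane-bound relative of calreticulin, held 72814 and 69739.7 in vehicle 1 and 2 and 68186 and 69688 in octanoate 1 and 2, a log2 difference of -0.05 (95% interval -0.17 to 0.08, limma adjusted p 0.606). For neither gene did the groups overlap, but the differences were small, and a fall of the size seen for CALR lies outside both intervals. MANF, a small secreted factor that binds HSPA5, held 9019 and 8175 in vehicle 1 and 2 and 7941 and 7616 in octanoate 1 and 2, a log2 difference of -0.14 (95% interval -0.27 to -0.02, limma adjusted p 0.0766); it was called lower in 6 of the 16 alternatives.

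The remaining chaperone genes are helpers of HSPA5. HYOU1, a large HSP70-like protein that exchanges its nucleotide, held 29036 and 27409 in vehicle 1 and 2 and 24886 and 23713 in octanoate 1 and 2, a log2 change of -0.22 with an SE of 0.06 (adjusted p 0.0064 by limma). DNAJB11, a J-domain co-chaperone, held 3856 and 3604 in vehicle 1 and 2 and 3225 and 3250.1 in octanoate 1 and 2, a log2 change of -0.20 with an SE of 0.06 (adjusted p 0.0141 by limma). SDF2L1, which forms a complex with DNAJB11, held 1864 and 1687 in vehicle 1 and 2 and 1565 and 1488 in octanoate 1 and 2, a log2 change of -0.22 with an SE of 0.07 (adjusted p 0.0242 by limma). HYOU1 fell by 13.9%, DNAJB11 fell by 13.2% and SDF2L1 fell by 14.0%, each with no overlap between the groups. DNAJC3, the J-domain protein P58IPK, held 8269.5 and 8064 in vehicle 1 and 2 and 7048 and 7579.7 in octanoate 1 and 2, a log2 change of -0.16 with an SE of 0.06 (adjusted p 0.0403 by limma). DNAJB9, the J-domain protein ERdj4 that acts in ERAD and on IRE1, went the other way, with 1121 and 1154 in vehicle 1 and 2 and 1306 and 1329.7 in octanoate 1 and 2, a log2 change of 0.21 with an SE of 0.07 (adjusted p 0.0285 by limma). It was the only chaperone gene called higher, by 15.9%.

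These 5 calls depended on single libraries. The adjusted p of HYOU1 was 0.0693 without vehicle 1 and 0.11 without octanoate 2. That of DNAJB11 was 0.159 without vehicle 1, 0.0666 without octanoate 1 and 0.054 without octanoate 2. For SDF2L1 it was 0.267 without vehicle 1 and 0.155 without octanoate 2, and for DNAJC3 it was 0.176 without vehicle 1, 0.0825 without vehicle 2 and 0.359 without octanoate 1. DNAJB9 lost its call without any one library, with an adjusted p of 0.146 without vehicle 1, 0.0734 without vehicle 2, 0.0805 without octanoate 1 and 0.138 without octanoate 2. Over the 16 alternatives the adjusted p ranged from 5.93e-06 to 0.152 for HYOU1, 0.000171 to 0.159 for DNAJB11, 0.000142 to 0.267 for SDF2L1, 0.00111 to 0.359 for DNAJC3 and 0.00233 to 0.146 for DNAJB9, while the sign of each difference was the same in all of them.

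Among the disulfide isomerases and related enzymes, which form and reshuffle the disulfide bonds of new proteins, 3 of 11 were called lower and 1 higher (median log2 difference -0.09). Of all genes with a mean of at least 1000, 38.1% were called, so the number of calls does not set this group apart. The 2 of these enzymes with the largest changes went in opposite directions. PDIA5, an isomerase known for its part in ATF6 activation (chr3:123067062-123225227, plus strand), held 880.4 and 791 in vehicle 1 and 2 and 1432 and 1339 in octanoate 1 and 2. It rose by 65.9%, from 836 ± 63.6 to 1386 ± 65.6 normalised counts (mean ± SD, n = 2 libraries), a log2 change of 0.73 with an SE of 0.08 (adjusted p 1.14e-07 by limma), and was called in all 16 alternatives (2.34e-16 to 0.0379). CRELD2, a secreted ER protein with isomerase activity whose ERSE stretch is printed above (chr22:49918167-49927540, plus strand), held 2253 and 2165 in vehicle 1 and 2 and 1651 and 1435 in octanoate 1 and 2. It fell by 30.2%, from 2209 ± 61.7 to 1543 ± 153 normalised counts (mean ± SD, n = 2 libraries), a log2 change of -0.52 with an SE of 0.07 (adjusted p 5.43e-06 by limma), the largest fall on the log2 scale among the members called lower. Its call was lost only without an intensity trend (adjusted p 0.0673, range 3.61e-13 to 0.0673).

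CRELD1, the membrane-anchored paralog, held 1365 and 1344 in vehicle 1 and 2 and 1145 and 1198 in octanoate 1 and 2, a log2 change of -0.21 with an SE of 0.07 (adjusted p 0.0303 by limma). P4HB, the founding protein disulfide isomerase PDI, held 37773 and 34758 in vehicle 1 and 2 and 33299 and 31239.8 in octanoate 1 and 2, a log2 change of -0.17 with an SE of 0.06 (adjusted p 0.0399 by limma). CRELD1 fell by 13.5% and P4HB fell by 11.0%, with no overlap between the groups. The adjusted p of CRELD1 was 0.138 without vehicle 1, 0.0935 without vehicle 2, 0.18 without octanoate 1 and 0.0559 without octanoate 2, and that of P4HB was 0.285 without vehicle 1 (log2 difference -0.11), 0.0509 without octanoate 1 and 0.343 without octanoate 2, with ranges of 0.00247 to 0.18 and 0.000386 to 0.343 over the alternatives.

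The bulk of the isomerases was not called. The abundant PDIA3 (ERp57, the partner of calnexin and calreticulin) had a log2 difference of -0.08 (95% interval -0.20 to 0.04, limma adjusted p 0.308), PDIA4 one of -0.09 (95% interval -0.21 to 0.03, limma adjusted p 0.281) and PDIA6 one of -0.05 (95% interval -0.17 to 0.07, limma adjusted p 0.533). These 3 isomerases had small differences, all below 0. ERP44, which retains thiol enzymes in the early secretory pathway, had one of -0.02 (95% interval -0.14 to 0.10, limma adjusted p 0.868). DNAJC10, a J-domain reductase that serves ERAD, had one of 0.05 (95% interval -0.07 to 0.16, limma adjusted p 0.595). ERO1LB (ERO1B), an oxidase that recharges the isomerases, held 3447 and 3514 in vehicle 1 and 2 and 3212 and 3248 in octanoate 1 and 2, a log2 difference of -0.11 (95% interval -0.23 to 0.02, limma adjusted p 0.189). All but DNAJC10 had differences below 0, and 0 lies inside each of these intervals. TXNDC5, a thioredoxin-domain isomerase, held 465 and 126 in vehicle 1 and 2 and 259 and 130.0 in octanoate 1 and 2. Its values differed more within the groups than between them with a log2 difference of -0.40 (95% interval -1.09 to 0.30, limma adjusted p 0.408), and in GENCODE 29 it lies inside the read-through gene BLOC1S5-TXNDC5, which is listed at 0 in all 4 libraries, so its count is uncertain. Its log2 difference was -1.34 without vehicle 2 and 0.54 without vehicle 1.

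ERAD genes moved in both directions: 2 of the 7 tested were higher, 1 was lower and 4 were not called (median log2 difference -0.04). This number of calls is near the 38.1% called among all genes with a mean of at least 1000. DERL2, a derlin of the ER exit channel (chr17:5471251-5486811, minus strand), held 4203 and 4304 in vehicle 1 and 2 and 3491 and 3311 in octanoate 1 and 2. It fell by 20.0%, from 4253 ± 71.1 to 3401 ± 128 normalised counts (mean ± SD, n = 2 libraries), a log2 change of -0.32 with an SE of 0.06 (adjusted p 0.000218 by limma), a call lost only without an intensity trend (0.0756, range 9.45e-09 to 0.0756). Of the mannosidase-like EDEM proteins, which pick out terminally misfolded glycoproteins, EDEM1 and EDEM2 rose, while EDEM3, from the further ERAD genes, had a log2 difference of 0.03 (95% interval -0.10 to 0.15, limma adjusted p 0.796). EDEM1 held 8783 and 8684 in vehicle 1 and 2 and 9686 and 9954 in octanoate 1 and 2, a log2 change of 0.17 with an SE of 0.06 (adjusted p 0.0241 by limma). EDEM2 held 2396 and 2053 in vehicle 1 and 2 and 2746 and 2544 in octanoate 1 and 2, a log2 change of 0.25 with an SE of 0.07 (adjusted p 0.0102 by limma). Both rose without overlap of the groups, by 12.4% and 18.9%. Leaving out any one library ended the call of EDEM1, with an adjusted p of 0.0703 without vehicle 1, 0.0985 without vehicle 2, 0.0677 without octanoate 1 and 0.18 without octanoate 2. For EDEM2 it was 0.236 without vehicle 2 (log2 difference 0.14) and 0.085 without octanoate 1. The ranges over the alternatives were 0.000377 to 0.18 for EDEM1 and 1.71e-05 to 0.236 for EDEM2.

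The core of the ERAD ubiquitin ligase was not called. SEL1L, its adaptor, held 6910.1 and 6935 in vehicle 1 and 2 and 6505 and 6961 in octanoate 1 and 2, a log2 difference of -0.04 (95% interval -0.16 to 0.08, limma adjusted p 0.65). SYVN1, the ligase HRD1 itself, held 3072 and 2969 in vehicle 1 and 2 and 2820.3 and 2632 in octanoate 1 and 2, a log2 difference of -0.15 (95% interval -0.28 to -0.02, limma adjusted p 0.0814). The adaptor thus lay nearer to 0 than the ligase, with intervals that overlap. HERPUD1, which recruits the ligase's parts and carries the ERSE-II printed above, held 4428 and 4124 in vehicle 1 and 2 and 4750.2 and 4631 in octanoate 1 and 2, a log2 difference of 0.13 (95% interval 0.01 to 0.26, limma adjusted p 0.0981). DERL1 held 4591 and 4328 in vehicle 1 and 2 and 4136 and 4333 in octanoate 1 and 2, a log2 difference of -0.07 (95% interval -0.20 to 0.05, limma adjusted p 0.387). The octanoate values of SYVN1 lay below and those of HERPUD1 above both vehicle values, and the groups overlapped for SEL1L and DERL1.

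Of the listed SEC61 channel subunits, 1 of 2 was called lower, where 20.0% of all genes with a mean of at least 1000 were. SEC61A1, the pore-forming subunit (chr3:128051641-128071683, plus strand), held 30006 and 28312 in vehicle 1 and 2 and 24477 and 24135 in octanoate 1 and 2. It fell by 16.6%, from 29159 ± 1198 to 24306 ± 242 normalised counts (mean ± SD, n = 2 libraries), a log2 change of -0.26 with an SE of 0.06 (adjusted p 0.0011 by limma), and the call was lost only without an intensity trend (0.105, range 9.25e-08 to 0.105). SEC61B, a small accessory subunit, held 6266 and 6062 in vehicle 1 and 2 and 5871 and 5479 in octanoate 1 and 2, a log2 difference of -0.12 (95% interval -0.24 to 0.00, limma adjusted p 0.133), without overlap of the groups.

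The sensors and transcription factors among the members all had differences above 0, 2 of 4 were called higher, and the median log2 difference was 0.16. The third sensor, PERK (EIF2AK3), is not a member and had a difference below 0, given with the further genes below. Among all tested genes 16.2% were called higher, and 49.3% had a difference below 0. ERN1, the IRE1 kinase and RNase that splices XBP1 (chr17:64039142-64130819, minus strand), held 541 and 556 in vehicle 1 and 2 and 920.2 and 893 in octanoate 1 and 2. It rose by 65.3%, from 548 ± 10.8 to 907 ± 19.2 normalised counts (mean ± SD, n = 2 libraries), a log2 change of 0.72 with an SE of 0.08 (adjusted p 3.17e-07 by limma), and was called in all 16 alternatives (1.76e-13 to 0.0267). XBP1, the factor made from the spliced mRNA (chr22:28794555-28800597, minus strand), held 5962 and 5745 in vehicle 1 and 2 and 6902 and 6609 in octanoate 1 and 2. It rose by 15.4%, from 5854 ± 153 to 6756 ± 208 normalised counts (mean ± SD, n = 2 libraries), a log2 change of 0.21 with an SE of 0.06 (adjusted p 0.00835 by limma). The adjusted p of XBP1 was 0.0756 without vehicle 2 and 0.0987 without octanoate 1, within a range of 2.85e-05 to 0.146.

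ATF6, the sensor that is cut in the Golgi to free a transcription factor, held 7858 and 7549 in vehicle 1 and 2 and 8415 and 8218 in octanoate 1 and 2, a log2 difference of 0.11 (95% interval -0.01 to 0.23, limma adjusted p 0.15). CREB3L2, a related membrane-bound factor that controls secretory genes, held 5875 and 5701 in vehicle 1 and 2 and 6012 and 6540.3 in octanoate 1 and 2, a log2 difference of 0.12 (95% interval -0.01 to 0.24, limma adjusted p 0.154). Neither pair of groups overlapped, and neither gene was called. Each was called in 1 of the 16 alternatives, over which the adjusted p ranged from 0.0223 to 0.44 for ATF6 and from 0.0237 to 0.7 for CREB3L2.

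**Figure D2:**
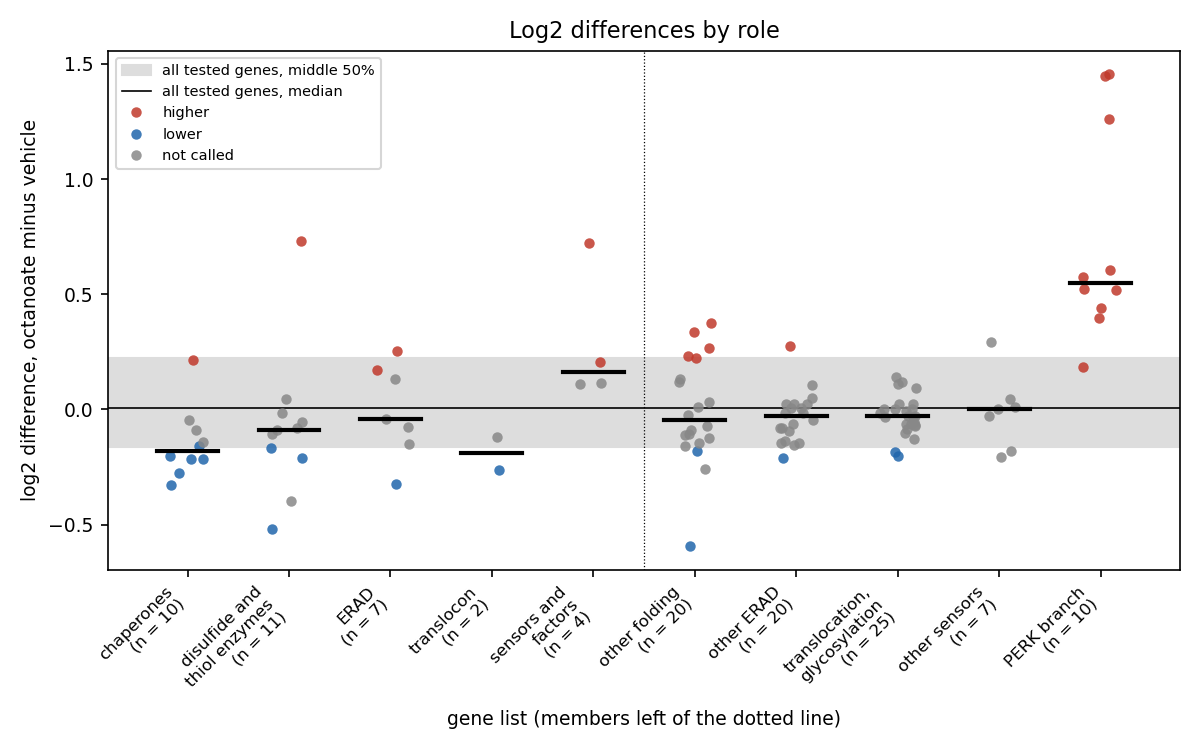
Points are log2 differences (octanoate minus vehicle) of single genes, coloured by call, and black bars are list medians; the grey band spans the middle 50% of all tested genes. The chaperone median of -0.18 lies below that of all genes (0.01), the sensors and factors among the members lie above it, and all 10 PERK branch genes lie above 0. The other sensors lie on both sides of 0.

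Members with and without an ERSE had like medians. Of the 8 members that hold it, HSPA5, CALR and CRELD2 were lower, XBP1 was higher, and HSP90B1, CANX, PDIA6 and ERO1B were not called, with a median log2 difference of -0.10. The 24 other members with a promoter sequence had 8 lower, 5 higher and 11 not called, and a median of -0.10. Of the 3 with ERSE-II, HYOU1 and SDF2L1 were lower and HERPUD1 was not called.

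Ratios of related genes within a library do not depend on how libraries are scaled to each other; the 8 ratios below were chosen with the values known and are a description. Calreticulin against calnexin, CALR/CANX, was 1.15 and 1.12 in vehicle 1 and 2 and 0.96 and 0.904 in octanoate 1 and 2. The ratio of both classical chaperones, HSPA5/HSP90B1, was 0.884 and 0.88 in vehicle 1 and 2 and 0.775 and 0.774 in octanoate 1 and 2. In each case the 2 libraries of a group lay close together and the groups apart. CRELD2/CRELD1 was 1.65 and 1.61 in vehicle 1 and 2 and 1.44 and 1.20 in octanoate 1 and 2, and DERL2/DERL1 was 0.916 and 0.994 in vehicle 1 and 2 and 0.844 and 0.764 in octanoate 1 and 2. Each of these 4 ratios was lower in both octanoate libraries than in both vehicle libraries. Sensor against sensor, ERN1/ATF6 was 0.0688 and 0.0737 in vehicle 1 and 2 and 0.109 and 0.109 in octanoate 1 and 2. The isomerase ratio PDIA5/PDIA6 was 0.0371 and 0.0355 in vehicle 1 and 2 and 0.0643 and 0.0607 in octanoate 1 and 2. Within ERAD, EDEM2/DERL2 was 0.57 and 0.477 in vehicle 1 and 2 and 0.787 and 0.768 in octanoate 1 and 2, and XBP1/HSPA5, a factor against its known target, was 0.0601 and 0.0615 in vehicle 1 and 2 and 0.0873 and 0.0828 in octanoate 1 and 2. None of the 8 ratios overlapped between the groups. The numerator of each was a called member whose own groups did not overlap, as was so for 63.1% of all tested genes without regard to calls. The separation thus goes with the choice of genes and tests nothing. The smallest two-sided p that exact permutation can reach with 2 libraries per group is 0.333.

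**Figure D3:**
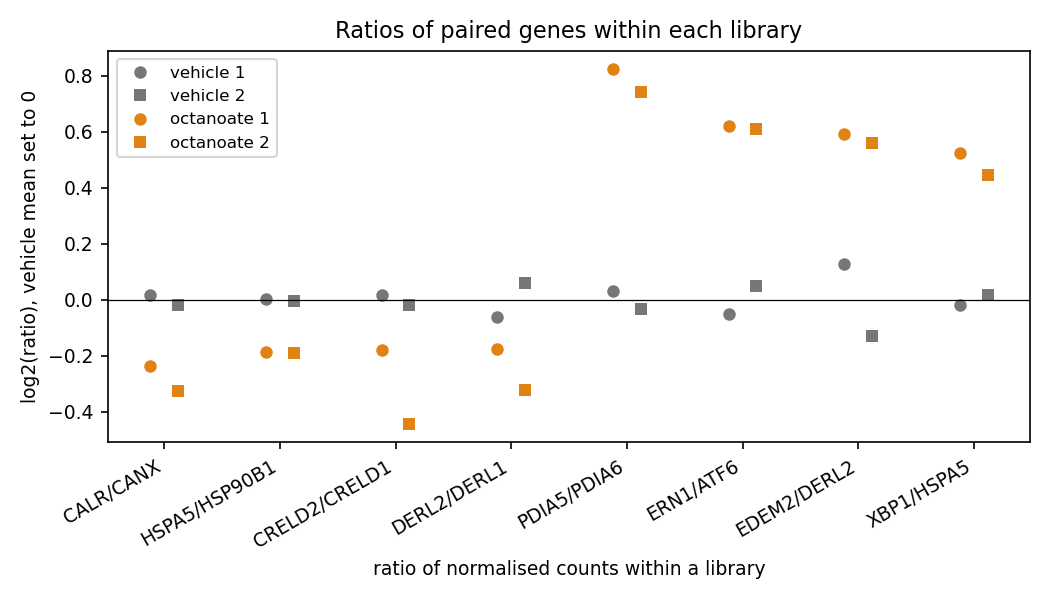
Each point is the log2 ratio of normalised counts of 2 genes in 1 library, with the mean of both vehicle libraries set to 0. The first 4 ratios are lower in both octanoate libraries and the last 4 are higher, with no overlap, in ratios chosen with the values known.

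The 34 members summed to 649588 and 613510.0 in vehicle 1 and 2 and 573626 and 570214 in octanoate 1 and 2, a change of -9.44%, and held 0.86% and 0.848% of all reads in vehicle and 0.764% and 0.776% in octanoate. HSPA5 and CALR made up 56.0% of the difference in that sum. The other 32 members summed to 466858 and 442133 in vehicle 1 and 2 and 429128 and 427331 in octanoate 1 and 2, a change of -5.78% that became -3.14% without vehicle 1. Per kb of exon sequence in GENCODE 29 (all exons of a gene joined, rarely used ones included), vehicle levels were highest for CALR (29732 normalised counts per kb), HSPA5 (24658), HSP90B1 (23267) and CANX (11432). In octanoate the level per kb was 23670.0 for CALR, 20330.0 for HSPA5 and 21844 for HSP90B1, so that per kb HSPA5 stood above HSP90B1 in vehicle and below it in octanoate. This change of order rests on the exon lengths used, since before division by length HSPA5 stood below HSP90B1 in every library. Lowest among the tested members in vehicle was ERN1 (50.5 per kb), and PDIA5 stood at 207 per kb.

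Other genes of ER protein handling, listed from textbook knowledge but with earlier results of these data known, mostly were not called. Of 20 further folding genes, 5 were higher and 2 lower (median log2 difference -0.05), where 16.2% and 13.7% of all tested genes were. TMX4, a membrane-bound thioredoxin, held 22289.9 and 21790.1 in vehicle 1 and 2 and 14715 and 14512 in octanoate 1 and 2, a log2 change of -0.59 with an SE of 0.06 (adjusted p 1.14e-08 by limma), a fall called in all 16 alternatives (3.91e-28 to 0.0304). FKBP14, a prolyl isomerase, held 1889 and 1822 in vehicle 1 and 2 and 2449.7 and 2372 in octanoate 1 and 2, a log2 change of 0.38 with an SE of 0.06 (adjusted p 8.47e-05 by limma). It rose, and its call was lost only without an intensity trend (0.0577, range 2.85e-09 to 0.0577). Of 20 further ERAD genes, 1 was higher and 1 lower, beside the same 16.2% and 13.7% of all tested genes. VCP, the ATPase that extracts ERAD substrates, held 45376 and 43533 in vehicle 1 and 2 and 38406 and 38305 in octanoate 1 and 2, a log2 change of -0.21 with an SE of 0.06 (adjusted p 0.0071 by limma). The fall of VCP depended on single libraries: its adjusted p was 0.0519 without vehicle 1, 0.0567 without octanoate 1 and 0.0687 without octanoate 2, in a range of 1.35e-05 to 0.13.

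Genes of translocation, signal peptide removal and N-glycosylation had 0 higher, 2 lower and 23 of 25 not called (median log2 difference -0.03). Among all tested genes 16.2% were higher and 13.7% lower. SSR2, a subunit of the translocon-associated complex, held 34711 and 32538 in vehicle 1 and 2 and 30098 and 28414 in octanoate 1 and 2, a log2 change of -0.20 with an SE of 0.06 (adjusted p 0.0123 by limma). SPCS2, a subunit of signal peptidase, held 6515 and 6208 in vehicle 1 and 2 and 5629.9 and 5571 in octanoate 1 and 2, a log2 change of -0.18 with an SE of 0.06 (adjusted p 0.0181 by limma). Both fell, and their adjusted p was 0.113 without vehicle 1 and 0.182 without octanoate 2 for SSR2 and 0.147 without vehicle 1, 0.0668 without octanoate 1 and 0.104 without octanoate 2 for SPCS2, in ranges of 2.56e-05 to 0.183 and 0.000212 to 0.167. At an unadjusted p under 0.05, 1 of this list was higher and 3 lower, edgeR called 1 higher and 2 lower, and DESeq2 0 and 2. The share of all genes at the unadjusted threshold is not given here. The calls of the further lists depended on the settings: 5 of their 82 tested genes were lower under the settings used here, where 13.7% of all genes were. After the same removal of GC and length trends 22 were lower, where 26.2% of all genes in that fit were. Why the number of calls rose was not tested.

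The listed genes below PERK rose, while none of the further sensor genes was called by limma. EIF2AK3, the sensor PERK, held 1204 and 1092 in vehicle 1 and 2 and 1016 and 1010.0 in octanoate 1 and 2, a log2 difference of -0.18 (95% interval -0.34 to -0.02, limma adjusted p 0.0845). With EIF2AK3 and the proteases and factors that process or resemble ATF6, the list held 7 tested genes, of which limma called 0. At an unadjusted p under 0.05, 0 of them were higher and 2 lower, edgeR called 0 higher and 1 lower, and DESeq2 0 and 0. For the unadjusted counts, the share of all genes is not given here. All 10 of 10 genes listed for the branch below PERK, which other stress kinases also drive through ATF4, were higher (median log2 difference 0.55). Of all tested genes 16.2% were higher, and this list was written with earlier results of these data known. For the same list edgeR called 10 higher and DESeq2 9. ATF4, the transcription factor of this branch, held 28967 and 27092 in vehicle 1 and 2 and 37801 and 36088 in octanoate 1 and 2, a log2 change of 0.40 with an SE of 0.06 (adjusted p 1.23e-05 by limma), a rise of 31.8%. CHAC1, a glutathione-degrading enzyme, held 655 and 587 in vehicle 1 and 2 and 1740.3 and 1664 in octanoate 1 and 2, a log2 change of 1.46 with an SE of 0.08 (adjusted p 6.75e-13 by limma). ATF3, a stress transcription factor, held 372 and 333 in vehicle 1 and 2 and 859.6 and 833 in octanoate 1 and 2, a log2 change of 1.26 with an SE of 0.09 (adjusted p 1.67e-10 by limma). The calls of CHAC1 and ATF3 held in all 16 alternatives (2.14e-42 to 0.0186 and 1.40e-22 to 0.0212), and that of ATF4 in 15 (2.22e-13 to 0.0649).

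**Figure D4:**
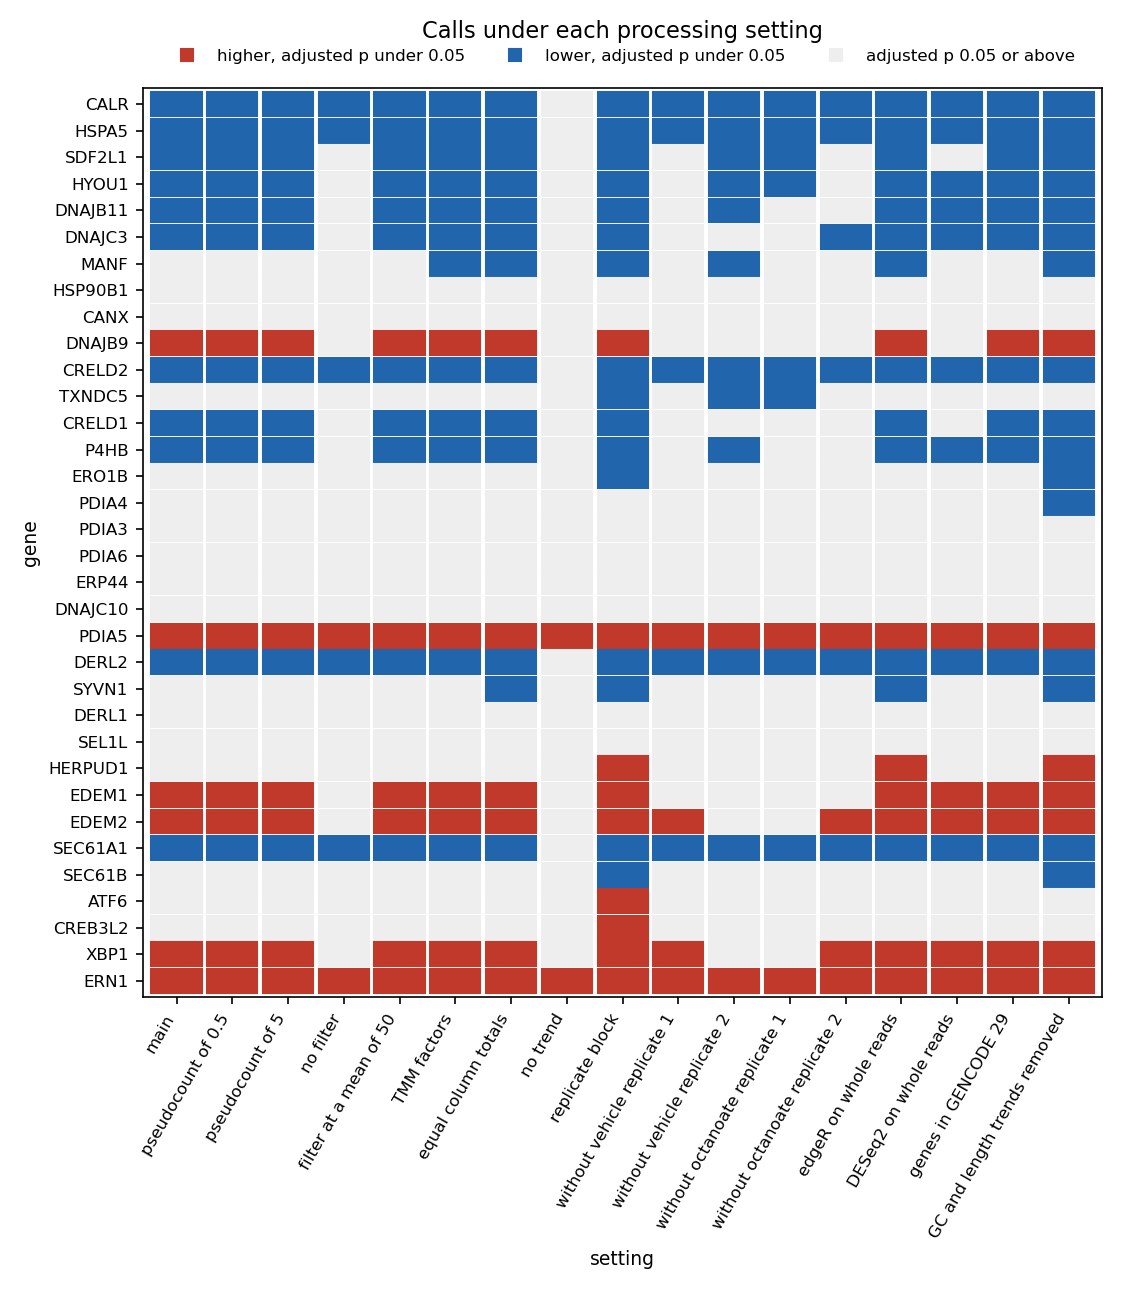
Rows are the 34 tested members and columns the settings under which all genes were refitted; red marks a gene called higher, blue one called lower and grey an adjusted p of 0.05 or above. PDIA5 and ERN1 are red in every column, HSPA5, CALR, CRELD2, DERL2 and SEC61A1 are blue in every column but the one without an intensity trend, and HSP90B1 and CANX are grey throughout.

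The call of a member held in between 9 and 16 of the 16 alternatives. It held in all of them for PDIA5 and ERN1 and in all but 1 for HSPA5, CALR, CRELD2, DERL2 and SEC61A1. The other 10 calls were lost in 4 to 7 alternatives, and each kept its sign. Without an intensity trend in limma's variance prior 0 members were called lower and 2 higher, where 2.62% and 5.41% of all genes were. At an unadjusted p under 0.05 in that fit, 8 members were lower and 4 higher. The share of all genes at that unadjusted threshold is not given here, so these 2 counts set nothing apart. EdgeR called 13 members lower and 7 higher, where 14.9% and 17.1% of all genes were. DESeq2 called 9 and 5, where 11.3% and 12.8% of the genes in its fit were. In the authors' deposited table, which covers 35 of the members, 9 members were lower and 5 higher at an adjusted p under 0.05, where 6.01% and 6.89% of all 33533 genes of the authors' deposited table were. Genes below the filter used here, such as DERL3, are among those 33533, so these shares are not matched to the members' level. Of the 17 members called by limma, 14 were called the same way in the authors' deposited table, and the exceptions were DNAJB9, CRELD1 and SDF2L1. The authors' deposited table lists a log2 fold change of 0.73 for PDIA5, 0.73 for ERN1, -0.28 for HSPA5 and -0.33 for CALR.

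Shared reads limit some of these values. In GENCODE 29, exons of 9 of the 17 called members (CALR, DNAJB9, DNAJB11, HYOU1, P4HB, CRELD2, EDEM1, DERL2 and SEC61A1) overlap a gene on the opposite strand, and whether counting used the strand is not given in the sources used here. DNAJB11 and PDIA5 overlap a gene on their own strand. HSPA5, DNAJC3, SDF2L1, CRELD1, EDEM2, XBP1 and ERN1 overlap neither.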

How the data were processed

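RNA of A375 melanoma cells was sequenced in 4 libraries, 2 given 1 mM octanoate and 2 given isopropanol for 48 h. The submitters' processing notes name bcl2fastq 2.17, Trim Galore, STAR 2.4, Picard, HTSeq 0.9.1, DESeq2 and the build hg38, with no role or order, and the annotation and the use of strand are not given in the sources used here. The authors deposited a signal per gene and library, namely read counts divided by 1 size factor per library, per the file headers and the values: 100% of values were whole multiples of the library's smallest one, within a tolerance of 0.001, and counts between 67785956 and 78005035 reads per library were recovered from them. The authors' deposited table of the comparison holds log2 fold changes with their errors, a score (fold change divided by its error), p-values and adjusted p-values, per the file headers.

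The signal was analysed as log2(value + 1) with limma 3.58.1 in R 4.3.3, letting the prior variance follow the mean level (the intensity trend), over genes with a mean of at least 10, two-sided, with Benjamini-Hochberg adjustment over all 20250 genes tested. The script was tested on simulated data. Percent changes compare group means of normalised counts. Alternatives changed the pseudocount (0.5 and 5), the filter (none, or a mean of 50), the scaling (TMM, or equal column totals), the variance prior and the replicate block, left out each library, and ran edgeR 4.0.16 and DESeq2 1.42.0 on the recovered reads. A fit on genes in GENCODE 29 and 1 with GC and length trends removed were added after seeing the data. Coordinates of genes are from GENCODE 29 (GRCh38) and promoter sequences from RefSeq (GRCh38.p14).

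The members and all gene lists were chosen with earlier results of these data known. Library values are printed for every called member and for HSPA5, HSP90B1, XBP1, ATF6 and ERN1, and of each further list the 2 called genes with the smallest p are named, except 1 that is not reported here (ATF4 and EIF2AK3 lie outside that rule and were named after their values were seen). Replicate numbers were not taken as pairs, since the labels do not say that they share a culture or day. No 2 libraries agreed within sampling noise: the chi-square over genes between replicates was 4.77 per degree of freedom in vehicle and 6.50 in octanoate.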

Additional observations from a re-analysis of the deposited data

How the results depend on the processing

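In this paragraph members are given first, then the 82 further pathway genes, then all genes, each as higher and lower, where the settings used throughout gave 6 and 11, 16 and 5, and 3271 and 2777. Without the filter on low values these were 2 and 5, 10 and 1, and 1597 and 998 over 43449 genes tested. Without an intensity trend they were 2 and 0, 4 and 1, and 1095 and 530. The further genes called lower numbered 9 with a mean of at least 50, 11 with TMM factors, 15 with equal column totals, 12 with edgeR, 8 among genes in GENCODE 29 and 22 with GC and length trends removed. In the same order, 17.8%, 14.7%, 16.0%, 14.9%, 16.9% and 26.2% of all genes in these fits were lower. Leaving out 1 library at a time gave 2 to 4 members higher and 5 to 11 lower, 12 to 15 further genes higher and 1 to 7 lower, 2322 to 2770 genes higher and 1525 to 2274 lower, and a median over members between -0.13 and -0.040. The cause of these moves was not tested. Over the 34 members and 16 alternatives, 460 values kept their sign and side of the threshold, 57 lost their call, 23 gained one and 4 changed sign, none of them in a called member. With 1 library left out, the log2 difference of TXNDC5 ranged from -1.34 to 0.54 (0.095 without octanoate 2), that of ERP44 from -0.045 to 0.012 and that of SEL1L from -0.090 to 0.0080. With 2 libraries per group, leaving 1 out leaves a lone sample that is assumed to vary like the other group.

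With the replicate number as a block, 9 members were higher and 16 lower, 20 further genes were higher and 18 lower, and 8376 genes were called in all, among them all 17 called members. The deviations of same-numbered libraries correlated at 0.126 over genes with 2 pairs, and the labels give no pairing, so the counts of this fit are given only here, and it is otherwise 1 of the 16 alternatives behind the ranges.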
